A study of Mus musculus with 4 samples.

Results

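The kappa light-chain variable (V) genes of peritoneal B cells were described in B-cell receptor (BCR) sequences of wild-type (WT) and knockout (KO) mice. Within each droplet barcode the kappa contig with the most unique molecular identifiers (UMIs) was taken, and every V gene named IGKV was counted as a member, together with its joining (J) gene and with the heavy-chain V gene of the same barcode. By this rule 93 IGKV genes were found, of 201 V genes of all 3 immunoglobulin chains. The rest were 100 heavy-chain genes, 3 lambda genes and 5 IGKV genes that were never in the top kappa contig of a barcode. The cells were sorted on CD45 from the fluid that washed out the peritoneal cavity, all mice of both genotypes had eaten high-fat food, starting when they were 4 weeks old and lasting 3 months, and a gene expression library and a BCR library were made from each genotype with 10x Genomics droplets. The knocked-out gene is not reported here, and how many mice were pooled is not stated in the labels. Each genotype was therefore 1 library, no spread between mice could be estimated, and no test between genotypes was made.

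A B cell joins 1 of many kappa V genes to 1 of a few J genes, and the light chain so made pairs with its heavy chain to form the receptor. V genes of the kappa locus lie in both orientations, so joining deletes the DNA between V and J for some genes and inverts it for others, and a cell can replace a first joint by joining a more distant V gene to a further J gene. The peritoneal cavity is rich in B-1a cells, a self-renewing B-cell subset whose receptors include recurrent pairs of a heavy and a kappa V gene, among them the pairs of IGHV11-2 with IGKV14-126 and of IGHV12-3 with IGKV4-91, which bind phosphatidylcholine.

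A kappa contig was present in 5534 of 6150 WT barcodes (89.98%) and 12110 of 13673 KO barcodes (88.6%), with a median of 73 and 47 kappa UMIs. A heavy-chain contig was also present in 5436 and 11665 of them. Barcodes with the same heavy V gene, J gene and CDR3 nucleotide sequence (the junction of the rearranged segments) were counted as 1 clone, which gave 4115 and 7028 clones. Such a clone is a shared heavy-chain rearrangement and need not descend from 1 cell. The KO library stood apart in clone size, with 2400 clones of exactly 2 barcodes (34.1% of its clones) against 222 (5.39%) in WT. Barcodes in clones of 2 or more made up 64.7% of paired KO barcodes and 31.1% in WT. The part of library preparation or of cell division in this difference was not tested, so the main shares are given by barcode and by clone. The libraries shared 112 barcodes, of which 0 had the same heavy clone or the same kappa rearrangement.

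The kappa rearrangements behind the results were short and close to the germline, and the most common are printed 5′ to 3′ as the contigs gave them. Capitals mark the 3′ bases that match the J gene beyond those already matching the V gene, and lower case marks the bases that match the V gene. The first 3 lines are the most common kappa CDR3 sequences of IGKV14-126 with IGHV11-2, which differ in the J gene. The next 2 are those of IGKV4-91 most common with IGHV12-3, and the last 3 were among the 5 rearrangements in most clones of both libraries.
IGKV14-126 with IGKJ2: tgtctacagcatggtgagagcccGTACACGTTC
IGKV14-126 with IGKJ4: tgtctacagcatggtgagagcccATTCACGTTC
IGKV14-126 with IGKJ1: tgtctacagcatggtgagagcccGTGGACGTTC
IGKV4-91 with IGKJ5: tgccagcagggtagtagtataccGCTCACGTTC
IGKV4-91 with IGKJ4: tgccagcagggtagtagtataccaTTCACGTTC
IGKV10-96 with IGKJ1: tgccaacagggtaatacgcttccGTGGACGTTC
IGKV1-117 with IGKJ1: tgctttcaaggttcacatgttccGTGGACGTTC
IGKV1-110 with IGKJ2: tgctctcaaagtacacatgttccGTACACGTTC

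In both libraries the same 4 V genes led the repertoire when each clone was counted once. IGKV1-110 was carried by 265 of 4115 WT clones (6.44%, exact Clopper-Pearson 95% interval 5.71 to 7.23) and 455 of 7028 KO clones (6.47%, 5.91 to 7.07). IGKV1-117 followed with 6.44% and 6.35% of clones, IGKV10-96 with 5.86% and 4.74%, and IGKV1-135 with 3.35% and 4.35%. All 4 lie on chromosome 6 in the kappa locus, IGKV1-110 for example at 68270485 to 68271267 of GRCm38 on the plus strand. Of the 12 V genes with the most clones in each library, 10 were shared. The 10 leading genes held 37.5% of WT and 37.7% of KO clones. The effective number of V genes, the inverse of the summed squared shares, was 39.9 by clone in WT and 40.7 in KO. By barcode it was 32.3 in WT and 40.02 in KO, and the WT order then began with IGKV14-126 and IGKV4-91. Of the 93 genes, 6 were not seen in WT and 1 was not seen in KO.

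Counted by barcode, the KO library held lower shares of IGKV14-126, the usual partner of IGHV11-2, and of IGKV3-7. IGKV14-126 was carried by 495 of 5534 WT barcodes (8.94%, 8.21 to 9.73) and 543 of 12110 KO barcodes (4.48%, 4.12 to 4.87). The KO to WT ratio of these shares was 0.501 (0.446 to 0.564). IGKV3-7 was carried by 122 WT barcodes (2.20%) and 116 KO barcodes (0.958%), a ratio of 0.435 (0.338 to 0.559). IGKV4-91 was carried by 371 WT barcodes (6.70%) and 550 KO barcodes (4.54%), a ratio of 0.677 (0.596 to 0.770). A gene was called lower where the whole 95% interval of the ratio lay more than 1.5-fold below 1, among genes with at least 20 barcodes in 1 library. By this rule IGKV14-126 and IGKV3-7 were called lower, 2 of the 70 IGKV genes that had enough barcodes (2.86%), against 1.92% of 156 V genes of all chains. None of the 70 was called higher. These intervals cover counting error only and treat barcodes as independent, which barcodes of 1 clone are not.

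The ratio of IGKV14-126 moved when the largest clones were left out. Without the 10 largest clones of each library its ratio per barcode was 0.804 (0.626 to 1.03) and the gene was no longer called. The ratio of IGKV4-91 was then 0.562 (0.480 to 0.658), and that gene was called lower. The clones left out were not all the same in WT and KO. IGHV11-2 clones of 17 and 16 WT barcodes were left out of WT alone, while their 3 and 13 KO barcodes stayed. The part of this unequal removal in the ratios was not tested. Counted by clone, IGKV4-91 was carried by 122 of 4115 WT clones (2.96%, 2.47 to 3.53) and 99 of 7028 KO clones (1.41%, 1.15 to 1.71). Its ratio of 0.475 (0.366 to 0.618) was the only one called among 65 IGKV genes with at least 20 clones (1.54%), against 1.39% of 144 V genes of all chains. IGKV14-126 was carried by 50 WT clones (1.22%) and 57 KO clones (0.811%), a ratio of 0.667 (0.457 to 0.974). IGKV3-7 was carried by 61 clones in each library, 1.48% in WT and 0.868% in KO, a ratio of 0.586 (0.411 to 0.833). IGKV14-126 had the most barcodes for each of its clones among the genes described here. All its kappa barcodes, with or without a heavy chain, divided by its clones gave 9.90 in WT and 9.53 in KO. For IGKV1-110 these values were 1.17 and 1.60.

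Over all IGKV genes with enough counts the ratios centred near 1, with a median of 1.07 over 70 genes by barcode and of 1.04 over 65 genes by clone. The interval held 1 for 54 of the 70 genes by barcode and for 58 of the 65 by clone. Among the most used genes, IGKV1-135 had a ratio per barcode of 1.41 (1.18 to 1.69) and IGKV9-120 one of 1.51 (1.19 to 1.91). By clone these ratios were 1.30 (1.07 to 1.58) and 1.37 (1.06 to 1.77), and neither gene was called in either count. The highest ratio per barcode, 1.86 (1.21 to 2.86), was that of IGKV9-124, a gene singled out after its values were seen, with 26 WT and 106 KO barcodes. IGKV4, the family with 23 members and the largest by barcode in WT, held 18.7% of WT and 16.5% of KO barcodes.

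**Figure D1:**
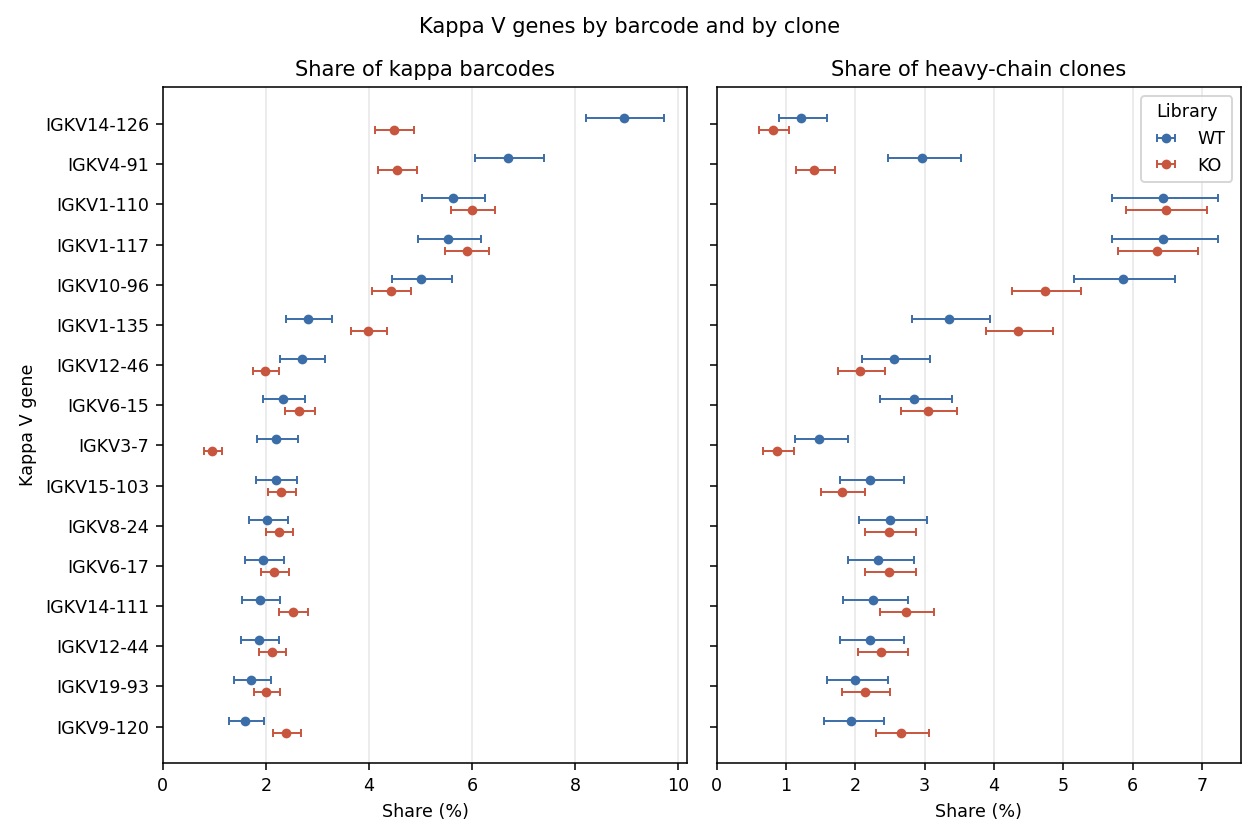
Share of kappa barcodes (left, percent) and of heavy-chain clones (right, percent) for the most used kappa V genes and IGKV3-7, with points for the WT and KO libraries and bars for exact 95% intervals of counting error. IGKV14-126, at 8.94% in WT and 4.48% in KO by barcode, is at 1.22% and 0.811% by clone, whereas IGKV1-110 stands at 6.44% and 6.47% of clones.

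Both genes known from phosphatidylcholine binding were then followed outside their usual heavy partner. With barcodes of IGHV11-2 and IGHV12-3 left out, IGKV14-126 was carried by 12 of 4342 WT barcodes (0.276%) and 37 of 10331 KO barcodes (0.358%), a ratio of 1.30 (0.676 to 2.48). IGKV3-7 had a ratio of 0.787 (0.553 to 1.12) there, with 47 and 88 barcodes. IGKV4-91 was carried by 43 WT barcodes (0.990%) and 37 KO barcodes (0.358%), a ratio of 0.362 (0.233 to 0.560). It was the only gene called lower there, 1 of 70 by barcode (1.43%) and 1 of 65 by clone (1.54%), and none was called higher. Its clones numbered 41 of 3871 in WT and 29 of 6828 in KO, a ratio of 0.401 (0.250 to 0.644). The lower share of IGKV4-91 in KO was also present with other heavy V genes, while the ratio of IGKV14-126 outside IGHV11-2 lay above 1 with an interval that held 1. This split was added after the data had been seen.

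IGHV11-2 was joined by IGKV14-126 in nearly every barcode. In WT 483 of 493 IGHV11-2 barcodes (98.0%, 96.3 to 99.0) carried it, and in KO 500 of 533 (93.8%, 91.4 to 95.7). By clone the shares were 42 of 48 (87.5%, 74.8 to 95.3) and 31 of 45 (68.9%, 53.4 to 81.8), so that their intervals overlapped. If heavy and kappa V genes were combined in proportion to their own clone numbers, 0.583 such clones would be seen in WT and 0.365 in KO, so the observed numbers were 72.0 and 84.9 times higher. Here and below, such multiples rise where both genes are rarer in a library, and the margins include the pair itself. They do not compare the strength of pairing between WT and KO. Seen from the kappa gene, 97.6% of WT and 92.3% of KO IGKV14-126 barcodes had IGHV11-2. By clone these shares were 42 of 50 in WT (84%) and 31 of 57 in KO (54.4%). IGKV14-126 was found with 8 heavy V genes in WT and 26 in KO, whereas IGKV1-110 was found with 71 and 81. The KO library holds more barcodes, so the counts of partners are not at equal depth.

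The IGKV14-126 chains of IGHV11-2 cells differed mainly in the J gene. All 42 WT and 31 KO clones of this pair had a kappa CDR3 of 33 bases, and the leading rearrangements of these clones came to 4 distinct kappa CDR3 sequences in each library. IGKJ2 was used in 287 of 483 WT barcodes (59.4%) and 276 of 500 KO barcodes (55.2%), and IGKJ4 in 153 (31.7%) and 171 (34.2%). The largest heavy clones of both libraries were the same 2 IGHV11-2 and IGHJ1 rearrangements, whose heavy CDR3 sequences are shown because they differ at 1 base, in capitals.
Heavy clone A: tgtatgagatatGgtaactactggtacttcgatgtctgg
Heavy clone B: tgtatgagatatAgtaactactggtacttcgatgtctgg
Clone A held 183 WT and 199 KO barcodes. In WT 102 of them had the IGKJ4 rearrangement printed above and 81 the IGKJ2 one, and in KO 109 and 89. Clone B held 170 WT and 137 KO barcodes, of which 143 and 99 had the IGKJ2 rearrangement and 23 and 36 the IGKJ4 one. In both libraries IGKJ4 was thus the more frequent form in clone A and IGKJ2 in clone B. Outside IGHV11-2, the 8 WT clones with IGKV14-126 had IGKJ1 in 37.5% and IGKJ2 in 25%, and the 26 KO clones in 61.5% and 11.5%.

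IGHV12-3 took IGKV4-91 most often and a wider set of kappa genes besides. IGKV4-91 was carried by 326 of 601 WT IGHV12-3 barcodes (54.2%, 50.2 to 58.3) and 510 of 801 KO barcodes (63.7%, 60.2 to 67.0). By clone the shares were 81 of 196 (41.3%, 34.4 to 48.6) and 70 of 155 (45.2%, 37.2 to 53.3). These were 13.9 and 32.1 times the numbers from the margins, which were 5.81 clones in WT and 2.18 in KO. The next partner in KO and the third in WT by barcode was IGKV4-57-1, with 48 WT and 74 KO barcodes (7.99% and 9.24% of the heavy gene), 11.3 and 12.7 times the margins by clone. IGKV3-7 was carried by 73 WT IGHV12-3 barcodes (12.1%, 9.64 to 15.03) and 26 KO barcodes (3.25%, 2.13 to 4.72). By clone these were 24 of 196 (12.2%, 8.01 to 17.7) and 10 of 155 (6.45%, 3.14 to 11.5), whose intervals overlapped. Of all WT IGKV3-7 barcodes with a heavy chain 60.8% had IGHV12-3, against 22.8% in KO. Of IGKV3-7 clones 39.3% in WT and 16.4% in KO did. IGKV10-94 and IGKV3-5 were carried by 26 and 21 WT and 29 and 17 KO barcodes of IGHV12-3.

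IGKV4-91 showed its own J pattern. IGKJ1 was found in 0 of 326 WT barcodes of IGHV12-3 with IGKV4-91 and in 31 of 510 in KO, of which 27 lay in 1 clone. With other heavy V genes IGKV4-91 had IGKJ1 in 0 of 43 WT and 0 of 37 KO barcodes. IGKJ5 was the most used J gene of the pair, in 53.1% of its WT and 57.1% of its KO clones. The largest IGHV12-3 heavy rearrangement, found in both libraries with 61 WT and 124 KO barcodes, carried 10 and 12 kappa rearrangements, led by the IGKJ4 form printed above with 20 and 55 barcodes. A KO clone of 27 barcodes with IGHV12-3 and IGHJ2 carried 9 kappa V genes, the most frequent being IGKV4-57-1 with 8 barcodes. By contrast 32 WT barcodes of another IGHV12-3 clone all had the IGKJ5 rearrangement of IGKV4-91, and that heavy rearrangement was in 0 KO barcodes.

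Further pairs recurred in both libraries outside these heavy genes. IGHV7-1, the heavy gene of the T15 idiotype that binds phosphorylcholine, is known to pair with IGKV7-33, which was absent with it in WT and seen in 4 KO barcodes of 1 clone. Instead it was carried with IGKV15-103 in 35 of 63 WT barcodes (55.6%) and 101 of 185 KO barcodes (54.6%). By clone these were 16 of 38 in WT (42.1%, 26.3 to 59.2) and 16 of 67 in KO (23.9%, 14.3 to 35.9). The intervals overlapped, and the clone numbers were 19.0 and 13.2 times the margins. IGHV1-55 with IGKV12-89 was found in 46 WT and 78 KO barcodes, 11 and 21 clones, at 12.3 and 15.5 times the margins. Seen from the kappa gene, 70.8% of WT and 65.5% of KO IGKV12-89 barcodes had IGHV1-55. Of its 29 WT and 48 KO clones 37.9% and 43.75% did. A single clone held 29 of the 46 WT barcodes of this pair, and another held 32 of the 78 in KO. IGHV4-1 with IGKV4-86 was in 5 WT and 13 KO clones, 14.9 and 37.9 times the margins. IGHV6-6 was joined by IGKV12-46 in 20 WT and 16 KO clones and by IGKV8-24 in 20 and 11 clones. IGHV2-6-8 took IGKV1-117 in 12 of 21 WT clones (57.1%) and 9 of 25 KO clones, with overlapping intervals. IGHV1-39 with IGKV15-103 was in 15 WT clones, 10.8 times the margins, and 7 KO clones, 3.20 times.

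Most heavy V genes had no such preferred partner. IGHV3-6 was found with 55 kappa V genes in 174 WT clones and 68 in 337 KO clones, an effective 29.5 and 29.8, while IGHV11-2 had an effective 1.30 and 2.06 and IGHV12-3 4.80 and 4.31. IGHV7-1 stood between, at 5.08 and 11.9. In all, 2066 heavy and kappa combinations were seen in WT and 2905 in KO, of which 1202 and 1472 were in 1 clone. Combinations seen in at least 1 barcode and with at least 5 clones given by the margins numbered 54 in WT and 184 in KO. Their median ratio of observed clones was 0.816 and 0.922. Combinations never seen were not counted, whatever the margins gave for them. Among them 2 in WT and 4 in KO were more than 2-fold above the margins, and 15 and 26 more than 2-fold below. These ratios describe the counts, and no test was made of them.

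**Figure D2:**
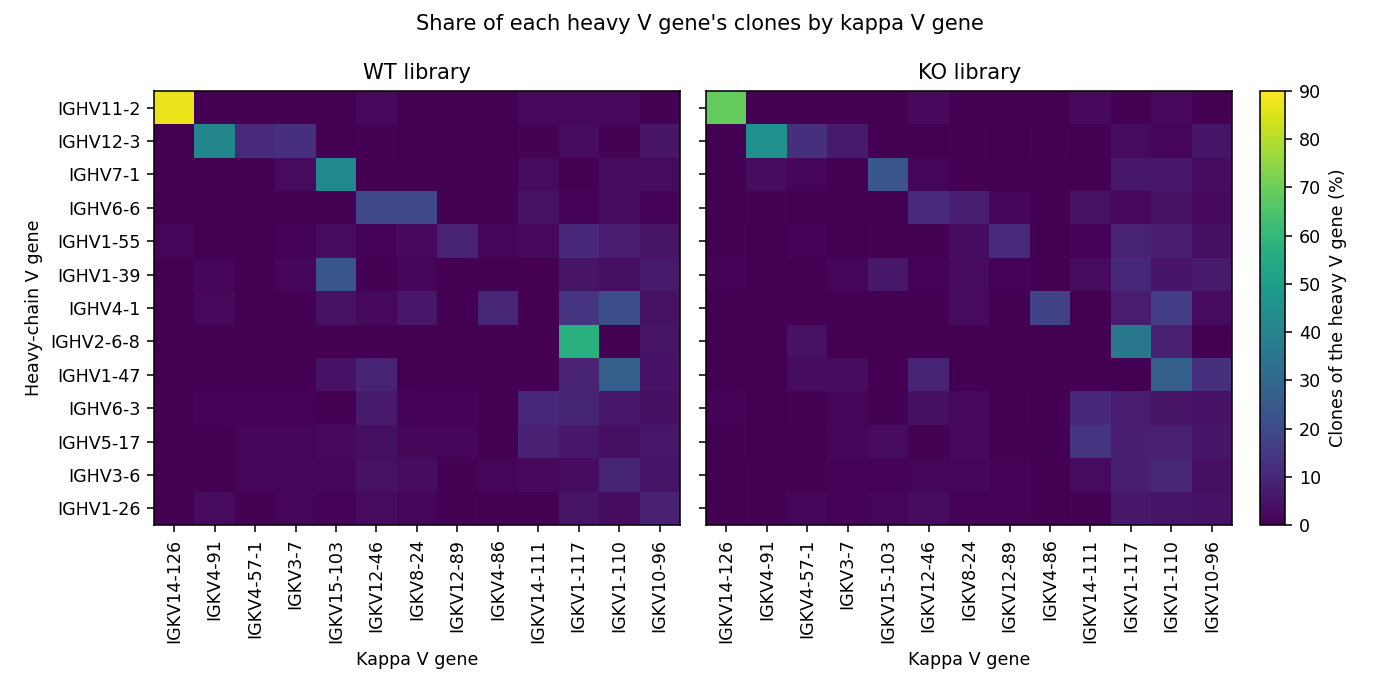
Share of the clones of each heavy-chain V gene (rows) that carried each kappa V gene (columns), in percent by colour, in the WT (left) and KO (right) library. The brightest cells are IGHV11-2 with IGKV14-126 at 87.5% and 68.9%, and the lower rows, such as IGHV3-6 and IGHV1-26, are spread over many kappa genes at under 10%.

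Barcodes of 1 heavy clone mostly shared 1 kappa V gene. In clones of 2 or more barcodes, 1576 of 1689 WT barcodes (93.3%, 92.0 to 94.5) and 7244 of 7543 KO barcodes (96.0%, 95.6 to 96.5) carried the most common V gene of their clone. That gene was taken from the same barcodes, so at least 1 barcode of every clone counted by construction, which sets a floor. The intervals also treat barcodes of 1 clone as independent. Counted by clone, without this floor, 295 of 368 in WT (80.2%, 75.7 to 84.1) and 2697 of 2906 in KO (92.8%, 91.8 to 93.7) had 1 kappa V gene. By heavy gene the pattern differed. Of clones with IGHV11-2, 26 of 27 in WT and 26 of 30 in KO had 1 kappa V gene. Of clones with IGHV12-3, 59 of 95 (62.1%, 51.6 to 71.9) and 76 of 110 (69.1%, 59.6 to 77.6) did. With other heavy genes the numbers were 210 of 246 (85.4%, 80.3 to 89.5) and 2595 of 2766 (93.8%, 92.9 to 94.7). IGHV12-3 clones thus had the lowest share in both libraries, and their intervals lay apart from those of other heavy genes. They were also larger: the 95 WT and 110 KO clones held 500 and 756 barcodes, against 717 and 6269 in the 246 and 2766 clones of other genes. From clones of 2 to those of 10 or more barcodes the share fell from 87.8% to 66.7% in WT and from 95.5% to 51.3% in KO. The part of clone size in the difference between heavy genes was not tested. In KO 95.4% of the 2400 clones of 2 barcodes shared the whole kappa rearrangement, against 80.2% of the 222 in WT. Whether the 2 barcodes of such a clone came from 1 cell was not tested, and agreement between barcodes of 1 cell would not be agreement between cells. The largest clones were more mixed in both libraries, as 6 of 24 WT and 8 of 39 KO clones with 10 or more barcodes had 1 kappa rearrangement.

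Heavy rearrangements found in both libraries often carried the same kappa V gene. Of 167 such heavy clones 98 (58.7%, 50.8 to 66.2) had the same most common kappa V gene in WT and KO, against 6.05% that the V gene shares of these clones would give. For IGHV11-2 this held in 13 of 15 (86.7%), the same share as from the margins, for IGHV12-3 in 28 of 51 (54.9%, against 28.7%) and for other heavy genes in 57 of 101 (56.4%, 46.2 to 66.3), against 6.07% from the shares of the last group. Of those 57, 9 were IGHV7-1 with IGKV15-103 and 4 IGHV2-6-8 with IGKV1-117, while IGHV1-55 with IGKV12-89 and IGHV1-47 with IGKV1-110 gave 3 each. The complete kappa rearrangement was the same in 45 of the 167 (26.9%). Because 0 of the barcodes shared by the libraries had the same kappa rearrangement, these matches came from different barcodes.

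**Figure D3:**
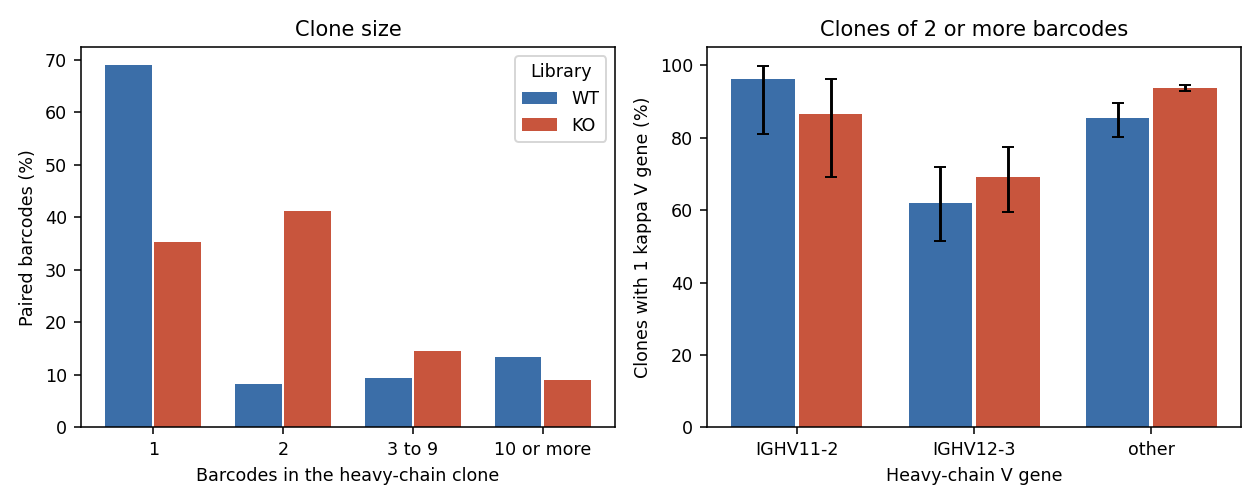
Left, share of paired barcodes (percent) by the number of barcodes in their heavy-chain clone, with KO highest at clones of 2 barcodes and WT at single barcodes. Right, share of clones of 2 or more barcodes with 1 kappa V gene (percent, bars for exact 95% intervals), lowest for IGHV12-3 at 62.1% in WT and 69.1% in KO. The heavy-gene groups are not at equal clone size.

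The 4 functional J genes were used in like shares in both libraries. By clone IGKJ1 made up 31.8% of WT and 33.1% of KO clones, IGKJ2 29.96% and 29.99%, IGKJ4 14.4% and 13.6%, and IGKJ5 23.8% and 23.3%. By barcode IGKJ1 stood at 28.5% in WT and 31.6% in KO, a ratio of 1.11 (1.05 to 1.16) that was not called. Single V genes differed far more from each other than the libraries did. IGKV10-96 joined IGKJ1 in 63.2% of its 242 WT and 66.7% of its 333 KO clones, and IGKV1-135 in 55.8% and 59.2%. IGKV6-15 did so in 6.84% of 117 and 12.1% of 214 clones and IGKV4-91 in 0 of 122 and 2.02% of 99. IGKV8-24 joined IGKJ5 in 35.0% and 34.9% of clones.

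The J gene varied with the orientation of the V gene in the locus. In the mouse annotation GENCODE M21 (GRCm38), 36 of the 93 genes lie in the same orientation as the constant gene Igkc, so that joining deletes the DNA between, and 57 in the opposite one, so that joining inverts it. V genes of the same orientation had IGKJ5 in 351 of 1905 WT clones (18.4%, 16.7 to 20.2) and those of the opposite one in 630 of 2210 (28.5%, 26.6 to 30.4). In KO the shares were 18.3% (17.1 to 19.7) and 27.9% (26.4 to 29.4). The reverse held for IGKJ1, with 35.6% against 28.5% in WT and 37.9% against 28.7% in KO. Part of this came with the IGKV4 family, all in the opposite orientation. Without it the opposite genes had IGKJ5 in 23.3% of WT clones (21.2 to 25.4) and 24.7% of KO clones (23.1 to 26.4), still above the intervals of the genes in the same orientation. For IGKJ1 the intervals then overlapped in WT, at 35.6% (33.5 to 37.8) and 33.9% (31.6 to 36.4), and did not in KO, at 37.9% (36.2 to 39.5) and 33.6% (31.8 to 35.4). Single genes overlapped between the orientations: among V genes with at least 20 clones in WT, the IGKJ5 share ran from 3.70% to 45.9% in the same orientation (24 genes, median 16.0%) and from 3.61% to 58.8% in the opposite one (34 genes, median 35.4%). The IGKJ5 share also differed along the position number in the gene name, which counts V genes from the J genes outward, and in no single direction. It was 27.2% of WT clones (24.6 to 29.9) at positions 1 to 40, 33.4% (30.2 to 36.6) at 41 to 80, 17.3% (15.2 to 19.6) at 81 to 110 and 19.5% (17.04 to 22.2) beyond. In KO the shares were 26.0% (24.1 to 28.0), 30.4% (28.1 to 32.9), 17.7% (16.0 to 19.5) and 20.2% (18.3 to 22.2), so the difference between the middle ranges was larger than that between orientations. How far position and orientation overlap in this was not tested.

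**Figure D4:**
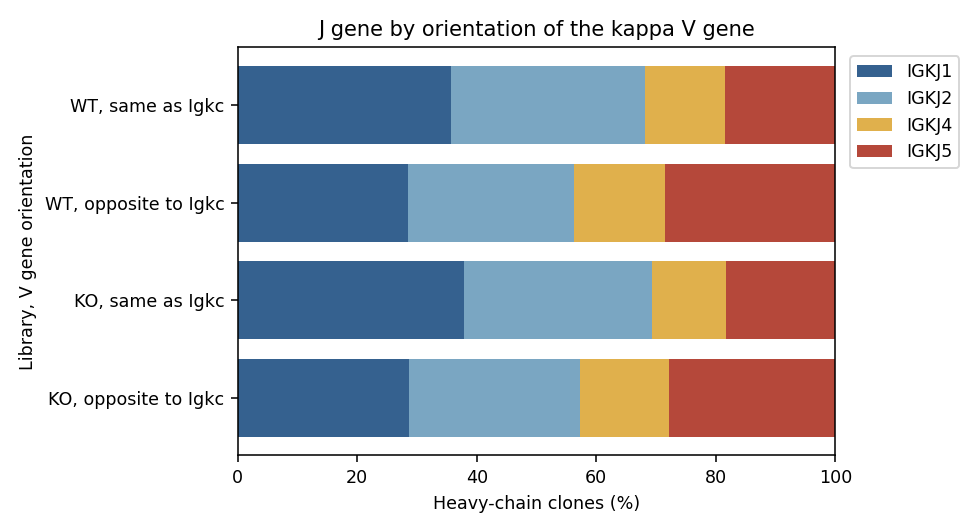
Share of heavy-chain clones (percent) with each kappa J gene, for V genes in the same and in the opposite orientation to Igkc in the WT and KO library. The IGKJ5 segment covers 18.4% and 18.3% in the same orientation and 28.5% and 27.9% in the opposite one.

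The kappa sequences were close to the germline. Over the V part up to the CDR3, 3970 of 4115 WT clones (96.5%) and 6759 of 7028 KO clones (96.2%) had no difference from the GENCODE transcript of their V gene. All 122 WT and 98 of 99 KO clones of IGKV4-91 were identical to it. IGKV1-110 and IGKV1-117 were lower, each with 246 of 265 WT clones (92.8%) and with 93.8% and 95.1% in KO. The CDR3 was 33 bases long in 89.2% of WT and 89.0% of KO clones. Among genes with other lengths, IGKV19-93 had 30 bases in 69.5% and 68.0% of its clones. No base outside the germline ends of V and J was found in 94.99% of WT and 95.1% of KO clones, and 1 such base in 1.99% and 2.09%. Dntt, which encodes the terminal transferase that adds such bases, had 3 UMIs over the WT and 7 over the KO kappa barcodes. These UMIs are of the sampled cells, and Dntt at the time of joining was not measured.

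The same kappa rearrangement recurred with many heavy chains. The 4115 WT clones carried 919 distinct kappa rearrangements and the 7028 KO clones 1180. A rearrangement seen in more than 1 clone was carried by 89.1% of WT and 92.0% of KO clones, and 91.4% and 88.8% of clones carried one that was also seen in the other library. The IGKV10-96 rearrangement with IGKJ1 printed above was in 88 WT clones with 45 heavy V genes and in 127 KO clones with 58. The IGKV1-117 rearrangement with IGKJ1 was in 69 WT clones and 135 KO clones, the most of any in KO, and the IGKV1-110 rearrangement with IGKJ2 in 70 and 96. The IGKJ5 rearrangement of IGKV4-91, in contrast, was in 41 WT clones, of which 30 had IGHV12-3.

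Some barcodes held more than 1 kappa contig. Such barcodes were 754 of 5534 in WT (13.6%) and 1922 of 12110 in KO (15.9%), and a lambda contig stood beside the kappa contig in 3.76% and 3.69%. Among barcodes with 1 heavy contig, 7.48% in WT (6.76 to 8.25) and 7.93% in KO (7.41 to 8.48) had 2 or more kappa contigs, against 71.3% and 68.6% of those with 2 or more heavy contigs. Of barcodes with 1 heavy and 2 or more kappa contigs that lay in clones of 2 or more, the second kappa chain was also found in another barcode of the clone in 115 of 132 in WT (87.1%, 80.2 to 92.3) and 509 of 531 in KO (95.9%, 93.8 to 97.4). The second contig had a median of 58.8% and 56.4% of the UMIs of the first. A match can also arise in clones with 2 common kappa rearrangements, such as the large IGHV11-2 clones, or where 2 barcodes came from 1 cell. The rate of such matches was not estimated, so these shares do not show how often 1 cell had 2 kappa chains. The part of doublets in barcodes with 2 kappa chains was not tested.

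The expression library gave a second reading of the V gene. In 5311 of 5388 WT barcodes (98.6%) and 11444 of 11727 KO barcodes (97.6%) the Igkv gene with the most UMIs there was the V gene of the kappa contig. The own V gene made up 89.2% of a WT and 86.6% of a KO library's Igkv UMIs in these barcodes. Barcodes with T-cell markers, which should not express Igkv genes, had at least 1 Igkv UMI in 16.9% of 1459 WT barcodes and 41.9% of 1688 KO barcodes, at a median depth of 4444 and 2366.5 UMIs. Kappa barcodes had one in 100% and 99.9%, at 6833 and 3342 UMIs. Mean Igkv UMIs were 0.191 and 0.575 in T-marker barcodes against 79.5 and 44.3 in kappa barcodes. The labels name a 3′ expression kit, so which end of the transcript these V-gene UMIs came from is uncertain.

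The B-1 and B-2 marker levels of the cells varied with the kappa V gene in both libraries. For each V gene with at least 50 barcodes, UMIs were summed and given as CPM (UMIs scaled to an equal library total) over a list of 10 B-1 markers (among them Cd5, Bhlhe41 and Zbtb32) and of 8 B-2 markers (among them Fcer2a, which encodes CD23, and Ighd). In WT the ratio of the B-1 to the B-2 level ran from 1.11 for IGKV6-23 to 6.45 for IGKV4-91 over 37 genes, with a median of 2.54. In KO it ran from 0.595 for IGKV13-85 to 7.05 for IGKV4-91 over 59 genes, with a median of 2.03. IGKV14-126 barcodes had B-1 markers at 5297 CPM and B-2 markers at 853 CPM in WT and at 5069 and 949 CPM in KO. Fcer2a stood at 11.2 CPM in WT and 7.86 in KO for IGKV14-126, against 333 and 163 CPM for IGKV6-23. Over all kappa barcodes the B-1 list was at 4001 CPM in WT and 3392 in KO and the B-2 list at 1285 and 1410 CPM. Of the B-1 sum Cd5 made up 32.6 and 29.0 CPM and Bhlhe41 52.1 and 39.1, so other listed genes made up most of it. Cd5 alone did not always order V genes as the ratio did. For IGKV10-94 it was at 40.9 and 43.0 CPM, with ratios of 2.54 and 2.35. For IGKV14-126 it was at 46.4 and 33.8 CPM, with ratios of 6.21 and 5.34. Bhlhe41 was at 47.5 and 47.9 CPM for IGKV10-94 against 82.4 and 76.2 for IGKV14-126.

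IGKV15-103 and IGKV12-89, which recurred with IGHV7-1 and IGHV1-55, also stood at the B-1 end, with ratios of 4.68 and 4.85 in WT and 4.10 and 4.64 in KO. These ratios cover all barcodes of each kappa gene, whatever the heavy gene. Of IGKV15-103 barcodes with a heavy chain only 29.9% in WT and 36.9% in KO had IGHV7-1. For IGKV12-89, 1 clone held 29 of the 65 WT barcodes with a heavy chain. Single markers did not all follow: Cd5 in IGKV15-103 barcodes was at 26.7 CPM in WT and 15.1 in KO, below the 32.6 and 29.0 over all kappa barcodes, and Bhlhe41 at 49.4 and 53.2 against 52.1 and 39.1. For IGKV12-89 both markers were above the level over all kappa barcodes in each library. IGKV14-126 and IGKV4-91 were then divided by heavy partner. In KO, IGKV14-126 had a ratio of 5.54 with IGHV11-2 and of 2.77 with other heavy genes (500 and 41 barcodes), and IGKV4-91 had 7.48 with IGHV12-3 and 2.85 with others (509 and 36 barcodes). In WT the 11 IGKV14-126 barcodes with other heavy genes had a ratio of 6.97, above the 6.20 of those with IGHV11-2, and IGKV4-91 had 6.82 with IGHV12-3 and 4.14 with others. IGKV3-7 had a ratio of 4.81 in WT and 2.59 in KO, beside the 60.8% and 22.8% of its barcodes that had IGHV12-3. Across the 37 genes the log2 ratio in WT went with that in KO at r = 0.84 (rho = 0.71), and with the log2 KO to WT share per barcode at r = -0.60 (Spearman's rho = -0.48). Genes at the B-1 end differed in this, since IGKV14-126, IGKV3-7 and IGKV4-91 had the share ratios of 0.501, 0.435 and 0.677 given above, whereas IGKV15-103, IGKV12-89 and IGKV4-57-1 had ratios of 1.05, 0.825 and 0.952 with intervals that held 1. The ratio of IGKV14-126 was 0.804 without the 10 largest clones of each library, which were not all the same clones. These are descriptions over genes that share cells and libraries.

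The constant gene of the heavy chain gave a like picture for some of these genes. IGHD, the delta constant gene of naive B cells, was assigned to 2.43% of WT and 3.87% of KO barcodes with a kappa chain. It was assigned to 0 of 495 WT and 2 of 542 KO barcodes with IGKV14-126 and to 2 of 369 and 0 of 547 with IGKV4-91. IGKV6-23 had it in 5 of 88 WT and 13 of 200 KO barcodes (5.68% and 6.50%). IGHD did not follow the marker ratio in every gene. IGKV1-110, with B-1 to B-2 ratios of 3.10 in WT and 2.51 in KO, had it in 1 of 302 and 13 of 708 barcodes. Switched constant genes were on 1.18% of WT and 1.13% of KO barcodes, and on 0 of 495 and 0 of 542 with IGKV14-126.

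Markers of other cells were also seen in kappa barcodes and differed between libraries. The B-cell list of 5 genes stood at 8506 CPM in WT and 9103 in KO, and none of its genes was at 0. The 5 macrophage markers summed to 325 CPM in WT and 533 in KO, the 4 NK markers to 78.1 and 137 CPM and the 6 T-cell markers to 191 and 240 CPM. None of these genes was at 0 in either library. A macrophage marker UMI was present in 8.07% of WT and 17.2% of KO kappa barcodes. The part of these UMIs in the shares of V genes was not tested.

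**Figure D5:**
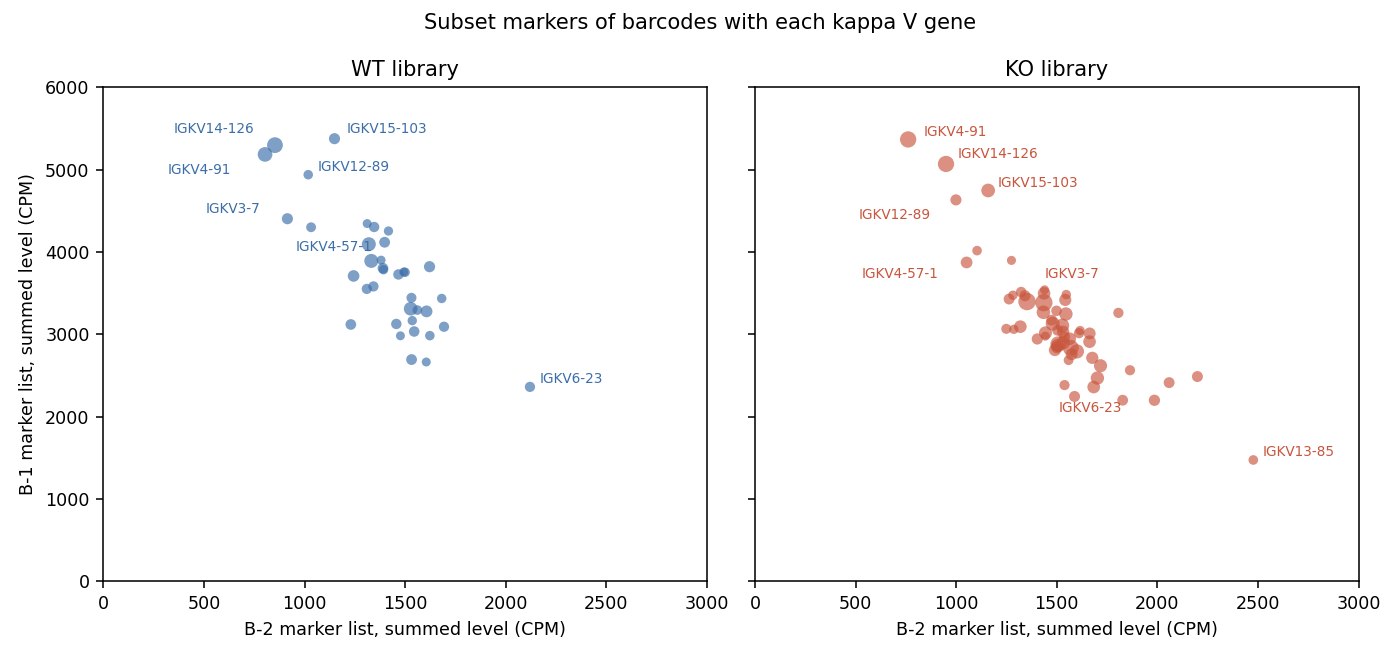
Summed level of the B-1 marker list (vertical axis, CPM) against the B-2 marker list (horizontal axis, CPM) over the barcodes of each kappa V gene with at least 50 barcodes, in the WT (left) and KO (right) library, with point size rising with the number of barcodes. IGKV4-91 and IGKV14-126 lie at the upper left in both, IGKV6-23 lies at the lower right in WT, and IGKV13-85 lies lowest in KO with a ratio of 0.595.

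Genes known to act in light-chain rearrangement and transcription were measured over the kappa barcodes from a list of 30. Of these, 24 reached 10 CPM in 1 library and 0 were called in either direction. Over all 7599 genes at that level 1.51% were called, and 0 of 24 is near that share. The median log2 KO to WT ratio of the 24 was 0.02, against 0.03 over all genes. Vpreb3, which encodes a protein that associates with immunoglobulin chains in B cells, had the largest ratio, at 31.5 CPM in WT and 46.6 in KO (1.48, exact 95% interval 1.38 to 1.58). Mef2c, a transcription factor of B cells, had a ratio of 1.19 (1.16 to 1.22) and Foxo1, which acts on Rag gene expression, one of 1.19 (1.14 to 1.23). Xrcc5, which encodes the Ku80 protein of end joining, had 0.847 (0.764 to 0.939). Igkc itself stood at 1206 and 1129 CPM. Rag1 had 0 UMIs in WT and 1 in KO, and Rag2, the other subunit of the recombinase, and Igll1, which encodes part of the surrogate light chain of precursor cells, had 0 in both.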

How the data were processed

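Droplet libraries of peritoneal CD45+ cells were analysed, 1 expression and 1 BCR library for each genotype. The deposited BCR files give counts of UMIs for each contig with its V, J and constant gene, and every contig was marked high-confidence, full-length and productive. The deposited expression files hold raw counts of UMIs, 81817635 in WT and 103953298 in KO. Per the file headers the expression counts were made by Cell Ranger 6.1.2. Version 6.0.1 of that program, Seurat 4.3.0 and the build mm39 are listed in the submitters' processing notes, so the version behind the counts is uncertain. Coordinates and orientation are from a match of gene names to GENCODE M21 (GRCm38).

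The contig with the most UMIs was taken for each chain. 9 WT and 27 KO barcodes had a tie for the top kappa contig. A clone took the kappa V gene of most of its barcodes, and for J and CDR3 its most common joint of V and J, so clone numbers of a gene can differ by 1. Shares carry exact Clopper-Pearson intervals, ratios of shares 95% intervals on the log scale, and ratios of CPM exact conditional binomial intervals. Expression barcodes had at least 200 genes and under 10% mitochondrial UMIs, and no doublet caller was run. Sequences were compared with edlib 1.3.9.post1, and the ratio scripts were tested on simulated data (Python 3.11.15, pandas 2.3.3, scipy 1.17.1).

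Alternatives were barcodes with 1 kappa or 1 heavy contig, a UMI minimum, barcodes in the expression library only, no barcodes shared by the libraries, no large clones, another definition of a clone and other limits on fold and counts. The V genes and lists were chosen with earlier results of these data known. Named V genes are the 12 with the most barcodes or clones in either library, those called and the canonical partners. Named pairs are the canonical ones and the 10 leading by clones, barcodes or ratio to the margins. Of the control list the 4 largest changes are named. The genes IGKV6-23, IGKV13-85, IGKV19-93 and IGKV9-124 were singled out after their values were seen.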

Additional observations from a re-analysis of the deposited data

How the results depend on the processing

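With 1 library per genotype the intervals cover counting error only, and mouse, batch and genotype cannot be told apart. KO kappa contigs had a median of 47 UMIs against 73 in WT. No paired analysis was possible because each group is 1 library. IGKV3-7 by barcode and IGKV4-91 by clone were called under each alternative run, and IGKV14-126 by barcode under each but 1. Without the 10 largest clones of each library, which were not all the same clones, IGKV14-126 stood at 0.804 and was not called. IGKV4-91 (0.562) was then called by barcode. With a lower limit on the fold IGKV4-91 was called by barcode as well. Of the values recomputed for the main comparisons 47 stayed within the spread allowed for counting error and 15 moved beyond it, and of those for the named genes 37 and 2. None changed direction.

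Without the 10 largest clones the share of IGHV11-2 barcodes with IGKV14-126 was 89.0% in WT and 80.1% in KO, that of IGHV12-3 with IGKV4-91 44.3% and 53.8%, and the WT share of barcodes with their clone's V gene 90.1%. Among barcodes with 1 kappa and no lambda contig, IGHV12-3 had IGKV4-91 in 63.3% in WT and 72.2% in KO, IGHV11-2 had IGKV14-126 in 96.4% in KO, and agreement within clones was 96.9% and 98.1%. Among barcodes with 1 heavy contig, agreement was 95.4% and 97.4%, and KO IGHV12-3 had IGKV4-91 in 67.0%. KO agreement was 96.7% with at least 3 UMIs a contig and 96.5% for barcodes in the expression library. Agreement here is the share of barcodes with the most common V gene of their clone, which has the floor described above. The cause of these shifts was not tested.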
